A study of Mus musculus with 10 samples.

Results

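Neutral lipids are stored in cells as triglycerides and cholesteryl esters inside lipid droplets. In all, 10 genes of that system were followed by name through microglia of 3 Trem2 genotypes: Dgat1, Dgat2 and Soat1, which make the stored lipid, Plin2 and Plin3, which coat the droplet, Pnpla2, Lipe and Mgll, which break it down, and Acsl1 and Acsl4, which activate fatty acids for both routes. They are 10 of 24060 gene names listed in the deposited values. All 10 reached the minimum level for testing. The group was chosen by the Dgat1 level in knockout against wild-type libraries, a measured value, so every value from that comparison is given as a description and supports nothing.

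Microglia, the macrophages of the brain, were isolated from adult C57BL/6 mice of 3 to 5 months with magnetic beads against CD11b. The groups were 4 TREM2+/+ libraries (wild type, numbers 1, 4, 7 and 10), 3 TREM2+/- libraries (heterozygous, numbers 5, 8 and 11) and 3 TREM2-/- libraries (knockout, numbers 6, 9 and 12). The female libraries were numbers 1, 5, 6, 10 and 11, and the other 5 were male. No injury, tau transgene or other treatment is named in the labels of these samples, and whether a library came from 1 mouse or a pool is not given. A p-value here therefore reflects how far these libraries scatter, which may be technical. The heterozygous libraries bear on the subject of the study, the loss of a single copy of Trem2, a receptor for lipids on microglia.

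A droplet begins when fatty acids, joined to coenzyme A by acyl-CoA synthetases, are added to diacylglycerol by DGAT enzymes or to cholesterol by SOAT enzymes in the endoplasmic reticulum. Perilipins cover the droplet surface and control access to it. Adipose triglyceride lipase, hormone-sensitive lipase and monoacylglycerol lipase then remove the fatty acids in turn. In microglia, droplets are known from ageing and demyelination, and monoacylglycerol lipase also degrades the endocannabinoid 2-arachidonoylglycerol.

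Values are RPKM, reads per length of gene and per depth of library, and so can be compared between genes. Reads recovered from them ranged from 17.31 M to 44.29 M per library (M, megareads), with 6 libraries between 17.3 and 22.1 M and 4 (knockout 9 and 12, wild type 10, heterozygous 11) between 36.5 and 44.3 M. Trem2 stood at 170.1 to 237 RPKM in wild type, 85.2 to 105 in heterozygous and 21.4 to 28.3 in knockout libraries, in the order of the labels. The microglial markers P2ry12 and Tmem119 were above 1 RPKM in every library. Neutrophil markers (12 of 12 found, 0 of them absent from every library of a genotype) summed to 104 to 224 RPKM in wild type, 144 to 358 in heterozygous and 372 to 2303 in knockout, the highest value being knockout library 6. The ranges for 8 monocyte markers were 45.2 to 59, 50.9 to 66.1 and 58.9 to 76.5 RPKM, and for 7 border macrophage markers 83.8 to 135, 102 to 171 and 93 to 161. Choroid plexus markers (4 of 4) summed to 635 to 1063, 1074 to 1745 and 990.5 to 1072 RPKM in the same order. In a bulk library, fewer cells of a type and less RNA per cell cannot be told apart.

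The promoters of the droplet coat Plin2 and of the 3 lipases are shown, a choice made after the values were seen. These genes were lowest or second lowest in wild-type library 4 (values further on). Dgat1, Dgat2, Plin3 and Acsl1 took such a place too, and their promoters are not printed. Each line gives the 250 bases before the RefSeq start site on GRCm38.p6, 5′ to 3′ on the strand of the gene, with matches to CACGTG (an E-box), GGGCGG (a GC-box) or AGGAAG (an ETS-type core) on either strand in capitals. Where matches to GGGCGG on the minus strand overlap, they form 1 longer run of capitals.
Plin2, chr4:86670060-86670309, minus strand: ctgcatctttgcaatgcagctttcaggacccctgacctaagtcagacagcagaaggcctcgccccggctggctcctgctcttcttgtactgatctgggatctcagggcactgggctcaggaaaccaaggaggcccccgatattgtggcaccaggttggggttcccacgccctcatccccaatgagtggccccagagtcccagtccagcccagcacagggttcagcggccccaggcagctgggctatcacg
Pnpla2, chr7:141454938-141455187, plus strand: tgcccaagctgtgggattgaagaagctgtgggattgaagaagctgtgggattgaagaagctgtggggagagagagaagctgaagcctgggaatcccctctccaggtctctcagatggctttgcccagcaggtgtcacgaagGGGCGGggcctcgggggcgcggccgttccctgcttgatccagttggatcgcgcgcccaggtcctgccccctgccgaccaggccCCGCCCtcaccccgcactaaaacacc
Mgll, chr6:88724162-88724411, plus strand: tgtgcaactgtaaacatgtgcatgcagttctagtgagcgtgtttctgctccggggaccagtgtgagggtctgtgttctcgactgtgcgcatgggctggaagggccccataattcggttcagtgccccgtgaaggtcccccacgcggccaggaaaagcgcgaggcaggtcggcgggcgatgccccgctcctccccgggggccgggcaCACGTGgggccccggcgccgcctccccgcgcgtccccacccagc
Lipe, chr7:25395988-25396237, minus strand: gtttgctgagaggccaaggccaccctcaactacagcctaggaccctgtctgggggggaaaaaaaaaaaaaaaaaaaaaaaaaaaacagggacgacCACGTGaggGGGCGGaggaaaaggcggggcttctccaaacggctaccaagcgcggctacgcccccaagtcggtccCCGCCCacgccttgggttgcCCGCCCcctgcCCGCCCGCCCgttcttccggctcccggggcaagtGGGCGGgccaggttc
RefSeq sequences matched 8 of the 10 genes (11 start sites), Dgat1 and Dgat2 being without an entry. CACGTG was present in 2 of the 11 windows, the Mgll and Lipe windows printed above, against 6.02% of 32851 promoter windows of the same length. GGGCGG was present in 6 of 11, against 32.7%. AGGAAG was present in 2 of 11, those of Soat1 and of the other Lipe start site, against 29.5%. The Lipe window held 6 GGGCGG matches and the Pnpla2 window 2, while the Plin2 window held none of the 3 motifs. The window of the other coat, Plin3, held 3 GGGCGG matches. A match is a description of letters and not evidence of binding.

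By level, averaged over the 10 libraries, the order per gene length was Acsl4 (28.4 RPKM), Soat1 (26.2), Pnpla2 (21.8), Plin2 (20.7), Acsl1 (19.9), Lipe (11.9), Dgat1 (10.6), Mgll (8.08), Plin3 (2.09) and Dgat2 (1.56). Neighbours in the middle of this order were not separated: Pnpla2 exceeded Plin2 in 7 of 10 libraries and Plin2 exceeded Acsl1 in 6. Acsl4 exceeded Soat1 in 8 of 10 and Plin3 exceeded Dgat2 in 7. Acsl4 lay above 85.4% of the 13621 genes tested and Dgat2 above 20.4%. The 2 triglyceride synthases and the 2 coats each divided into a more and a less abundant transcript. Dgat1 exceeded Dgat2, the unrelated second triglyceride synthase, by 7.11-fold ± 1.74 (SD, n = 10), and Plin2 exceeded Plin3 by 10.2-fold ± 2.74 (SD, n = 10).

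**Figure D1:**
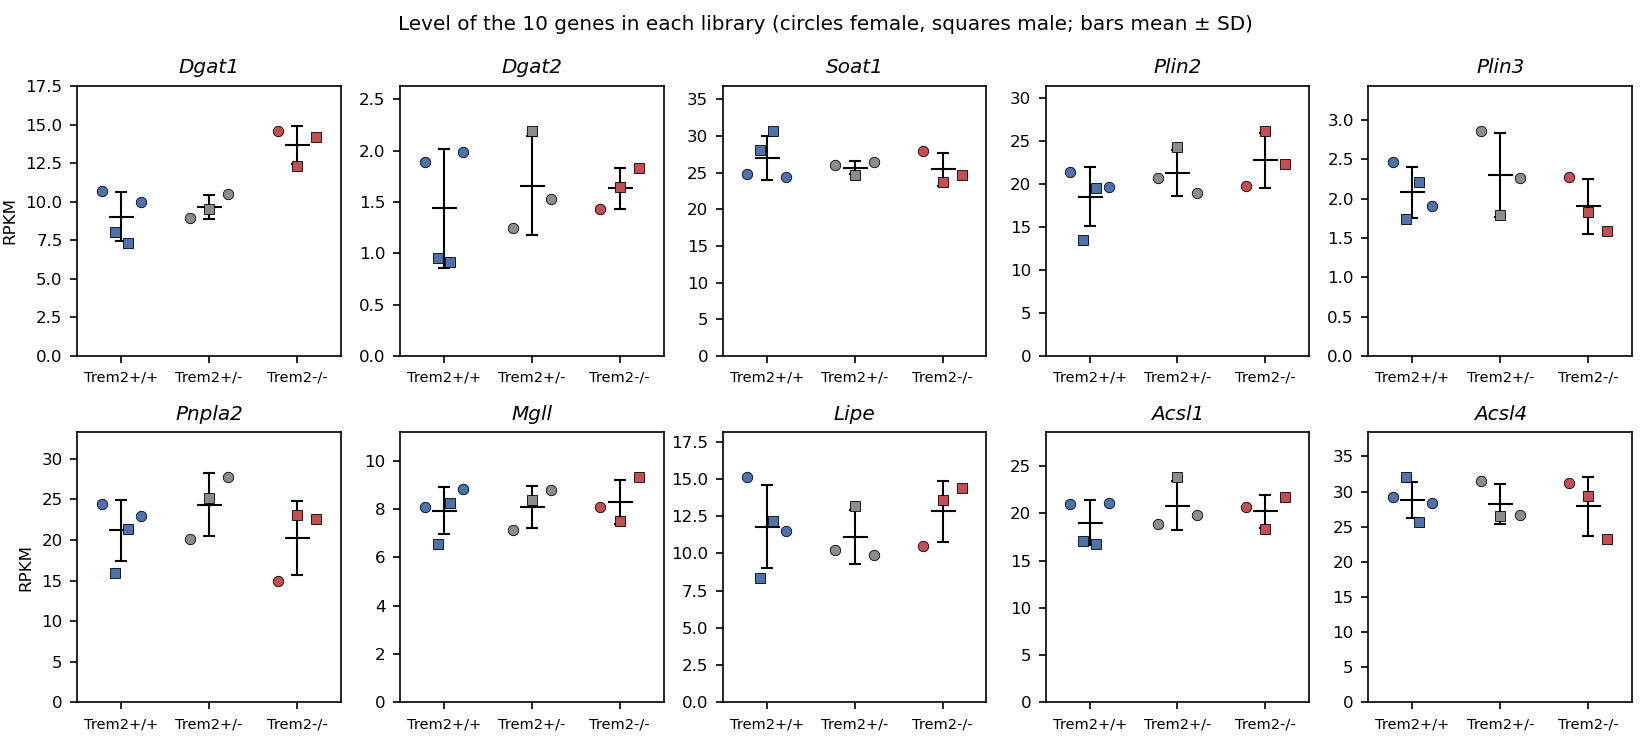
RPKM (y axis, from 0) of each of the 10 genes in every library, by Trem2 genotype. Circles are female and squares male libraries, and bars give the mean ± SD of 4 wild-type, 3 heterozygous and 3 knockout libraries. Dgat1 is the gene whose knockout libraries (12.3 to 14.6 RPKM) all lie above the others, and the remaining 9 overlap between knockout and wild type.

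Of the lipid-synthesis genes, Dgat1 was higher in the knockout libraries. Dgat1 (ENSMUSG00000022555.12, chromosome 15, 76502015 to 76511953, minus strand of GRCm38) encodes the diacylglycerol acyltransferase of the MBOAT family. It stood at 10.7, 8.06, 7.35 and 10.0 RPKM in wild-type libraries 1, 4, 7 and 10, at 8.94, 9.56 and 10.5 in heterozygous libraries 5, 8 and 11, and at 14.6, 12.3 and 14.2 in knockout libraries 6, 9 and 12. Every knockout library lay above all 7 libraries with an intact copy, while the ranges of the other genotypes overlapped. Every heterozygous library lay above every wild-type library for 2.23% of all genes and below for 2.30%. The means were 9.04 ± 1.60 (SD, n = 4), 9.67 ± 0.799 (SD, n = 3) and 13.7 ± 1.26 RPKM (SD, n = 3), so the knockout mean was 152% and the heterozygous mean 107% of wild type. On the log2(RPKM + 0.5) scale the knockout stood 0.62 above wild type (SE 0.13, 95% interval 0.34 to 0.90). These are the values that chose the gene. Of all genes tested, 2.99% had every knockout above every wild-type library, and 0.874% had every knockout library above all 7 others.

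By depth, the Dgat1 values were as follows, with 1 library in some groups. Among the 6 shallower libraries the single knockout stood at 14.6 RPKM against 7.35 to 10.7 in 3 wild-type and 8.94 to 9.56 in 2 heterozygous libraries. Among the 4 deeper ones, 2 knockouts stood at 12.3 and 14.2 against 10.0 in wild type and 10.5 in heterozygous. The part of depth in the result was not tested. Reads behind these values numbered 238 to 1005 per library, which gives a counting error of 6.48% at the lowest and 3.15% at the highest. Neutrophil marker sums were also higher in every knockout library than in any other. Without knockout library 6, where that sum was 2303 RPKM, the Dgat1 difference from wild type was 0.67, as large as with it, but the sums of the other knockouts still lay above the wild-type range, and their part in the result was not tested.

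In heterozygous against wild-type libraries, which is the question of a single lost copy, Dgat1 differed by log2 0.07 (SE 0.13, 95% interval -0.21 to 0.35; limma adjusted p = 1.00 over all genes). In knockout against heterozygous libraries the difference was log2 0.56 (SE 0.14, 95% interval 0.25 to 0.86; limma adjusted p = 0.999, unadjusted p = 0.00219). That comparison shares the knockout libraries that chose the gene. The background share of genes with every knockout above every heterozygous library was 4.40%, and below 3.02%.

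Dgat2, the DGAT enzyme that shares no family with Dgat1, was the lowest of the 10. Its values were 1.89, 0.954, 0.915 and 1.99 RPKM in wild-type libraries 1, 4, 7 and 10, 1.25, 2.19 and 1.53 in heterozygous libraries 5, 8 and 11, and 1.43, 1.64 and 1.83 in knockout libraries 6, 9 and 12. The 2 male wild-type libraries were the lowest of all, and the genotypes overlapped. With 38 to 202 reads per library the counting error reached 16.2%, and the interval of the heterozygous difference ran from -0.42 to 0.75 around log2 0.16. Dgat2 also had the widest residual spread of the 10 genes (SD 0.364 on the log2 scale, above 79.6% of genes).

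Soat1, the acyltransferase that esterifies cholesterol and the MBOAT relative of Dgat1, had the narrowest. Its residual SD was 0.132, below that of all but 16.5% of genes. It stood at 24.8, 28.1, 30.7 and 24.4 RPKM in wild-type, 26.0, 24.7 and 26.4 in heterozygous and 28.0, 23.7 and 24.7 in knockout libraries, each in the order of their numbers. Both male wild-type libraries lay above the other 2, and the genotypes overlapped. The difference from wild type was log2 -0.06 in heterozygous (95% interval -0.30 to 0.18) and -0.08 in knockout libraries (95% interval -0.33 to 0.16). The ratio of Dgat1 to Soat1 was 0.239 to 0.433 in wild type, 0.343 to 0.399 in heterozygous and 0.517 to 0.577 in knockout, which follows from the Dgat1 values.

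The droplet coats showed no call in any comparison. Plin2, the perilipin of most non-adipose cells whose protein rises with droplet content, stood at 21.4, 13.5, 19.6 and 19.7 RPKM in wild-type libraries 1, 4, 7 and 10. It stood at 20.7, 24.3 and 19.0 in heterozygous and 19.8, 26.2 and 22.4 in knockout libraries. Wild-type library 4 was the lowest of all 10 by a wide step, and the genotypes overlapped. The knockout difference of log2 0.30 (95% interval -0.07 to 0.67) was 0.10 without that library, 0.44 without knockout library 6 and 0.20 without knockout library 9. The heterozygous difference was log2 0.21 (SE 0.17, 95% interval -0.16 to 0.58), and 0.068 without wild-type library 4. Plin3, a coat protein that moves between the cytosol and young droplets, lay between 1.59 and 2.86 RPKM. Its heterozygous difference was log2 0.06 (95% interval -0.34 to 0.46) and its knockout difference -0.06 (95% interval -0.46 to 0.34).

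The lipases overlapped between genotypes. Pnpla2, adipose triglyceride lipase, which removes the first fatty acid, stood at 24.4, 15.9, 21.4 and 23.0 RPKM in wild-type, 20.1, 25.2 and 27.7 in heterozygous and 15, 23.1 and 22.6 in knockout libraries, in the order of their numbers. Knockout library 6 was the lowest, next to wild-type library 4. The difference between knockout and heterozygous libraries was log2 -0.29 (SE 0.21, 95% interval -0.75 to 0.18; limma adjusted p = 0.999) and 0.04 without knockout library 6. Lipe, hormone-sensitive lipase, stood at 15.1, 8.32, 12.2 and 11.5 RPKM in wild type, 10.2, 13.2 and 9.89 in heterozygous and 10.5, 13.6 and 14.4 in knockout. Its wild-type libraries spanned the whole range of the other genotypes, and its exons share 918 bases with the antisense gene 4732471J01Rik (4.11 RPKM), whose reads cannot be told apart from its own if strand was not used. Acsl1 shares 1039 exon bases with the opposite-strand Gm45244, and Mgll shares 167 with Gm26588. Reads there cannot be told apart either if strand was not used, and neither Gm45244 nor Gm26588 had a listed value. Mgll, monoacylglycerol lipase, was the lipase with the smallest spread (6.54 to 9.30 RPKM, residual SD 0.172). Its heterozygous difference was log2 0.02 (95% interval -0.29 to 0.34).

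The ratio of Pnpla2 to Lipe, the first lipase over the second, was 1.62 to 1.99 in 4 wild-type libraries, while Lipe itself ran from 8.32 to 15.1 RPKM there. The ratio was 1.91 to 2.80 in heterozygous and 1.44 to 1.70 in knockout libraries. Wild-type values overlapped with both, while every knockout value lay below every heterozygous value. Such a separation held for 3.02% of all single genes, and no share was computed for ratios. This is 1 of 5 ratios computed, and the difference between knockout and heterozygous libraries was not tested.

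The acyl-CoA synthetases overlapped between genotypes too. Acsl1, which supplies triglyceride synthesis and fatty acid oxidation, lay between 16.8 and 23.8 RPKM, and Acsl4, which prefers arachidonic acid and lies on the X chromosome, between 23.2 and 32.0. Acsl1 differed by log2 0.12 in heterozygous (95% interval -0.16 to 0.40) and 0.10 in knockout libraries (95% interval -0.18 to 0.38). Acsl4 differed by log2 -0.05 (95% interval -0.32 to 0.22) and -0.04 (95% interval -0.30 to 0.23). These intervals leave room for changes of moderate size and do not show that the genotypes were alike.

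**Figure D2:**
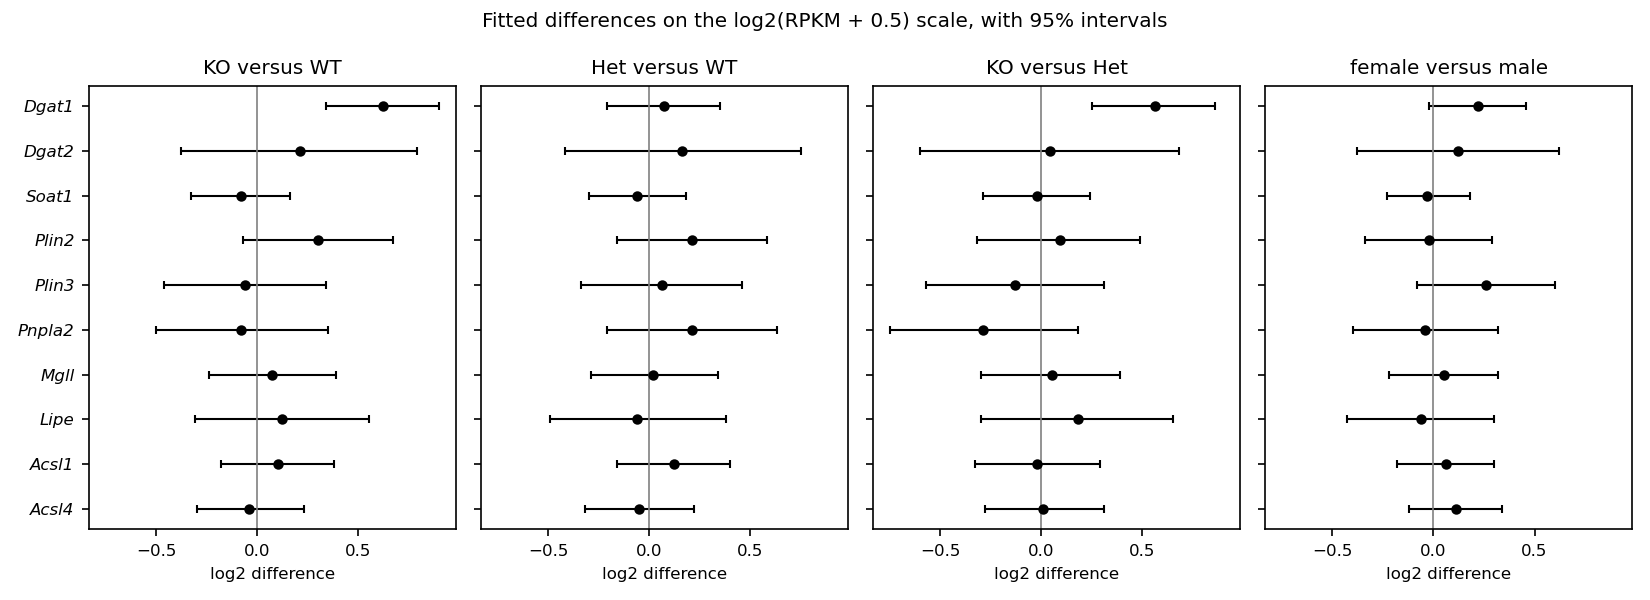
Fitted differences (x axis, log2 scale, points) with 95% intervals (bars) for the 10 genes in 4 comparisons from a single limma model of all 10 libraries. Intervals that leave out 0 are those of Dgat1 in knockout against wild type (0.34 to 0.90) and against heterozygous (0.25 to 0.86), both without adjustment for the number of genes.

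As a list, 0 of the 10 genes were called in knockout against wild type by limma at an adjusted p under 0.05, where 0.00734% of all 13621 genes were called (1 gene, Trem2). Dgat1 was the 1 member with an unadjusted p under 0.05 there, against 5.13% of all genes (3.32% higher, 1.81% lower). In heterozygous against wild type 0 of 10 were called, the background being 0% called and 2.75% with an unadjusted p under 0.05 (1.40% higher, 1.35% lower), a level that 0 of the 10 reached by limma or by limma-voom on recovered reads. Trem2 itself, at 49.0% of its wild-type mean in heterozygous libraries, was not called there (log2 -1.02; limma adjusted p = 0.238), so the absence of calls says little about differences of that size or smaller. Likewise 0 of 10 were called in knockout against heterozygous (background 0.00734%), with Dgat1 again the 1 gene at an unadjusted p under 0.05 (background 3.35%, of which 2.20% higher and 1.15% lower). Limma-voom also called 0 of 10 in each comparison. The median log2 difference of the list was 0.09 in knockout and 0.07 in heterozygous against wild type, beside 0.03 and 0 over all genes, comparisons that share the wild-type libraries. In these, 6 and 7 of the 10 genes had a positive sign, beside 57.2% and 50.3% of all genes.

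Wild-type library 4, a male, was lowest or second lowest of the 10 libraries for 8 of the 10 genes, the exceptions being Soat1 and Acsl4. It took such a place for 35.7% of all genes tested. Plin2 (13.5 RPKM), Mgll (6.54) and Lipe (8.32) had their lowest value there. The lowest values of Dgat1, Dgat2 and Acsl1 were in wild-type library 7, the other male of that genotype. Library 4 was singled out after its values were seen. Choroid plexus marker sums were also lowest in these males, at 716 RPKM in library 4 and 635 in library 7 against 990.5 to 1745 in the other 8 libraries, and their part in the low values was not tested. Library 4 also had the fewest genes above 0 (16323). Its border macrophage (83.8 RPKM), monocyte (45.2) and neuron (3.94) marker sums were the lowest of the 10 libraries. Its microglia sum (10096 RPKM, against 8314 to 10019 in the others) and its T and NK cell sum (7.55) were the highest. The part of these was not tested either.

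Sex was a comparison that the choice of genes did not use. By limma with genotype in the model, 0 of 10 genes were called (background 0.044%, 6 genes, with 0.00734% higher and 0.0367% lower in females) and 0 had an unadjusted p under 0.05 (background 5.34%, with 3.51% higher and 1.83% lower), also by limma-voom. Dgat1 came closest, at log2 0.22 higher in females (SE 0.11, 95% interval -0.02 to 0.46; limma adjusted p = 0.921). In wild type its 2 female libraries (10.7 and 10.0 RPKM) lay above the 2 males (8.06 and 7.35), and in knockout the female (14.6) above the 2 males (12.3 and 14.2). In heterozygous the male (9.56) lay between the females (8.94 and 10.5). Plin3 was at 2.47, 2.86, 2.28, 1.91 and 2.26 RPKM in female and 1.74, 2.21, 1.79, 1.83 and 1.59 in male libraries, an overlap of 1 female with the male range, and differed by log2 0.26 (95% interval -0.08 to 0.60). The X-linked Acsl4 differed by log2 0.11 (95% interval -0.12 to 0.34).

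Around these 10 genes, 96 other genes of lipid storage and use were listed in 7 groups, of which 95 were found and 76 reached the minimum level. In knockout against wild type 39 had a positive and 37 a negative sign, with a median of 0.01, and 0 were called (background 0.00734%). All knockout libraries lay above all wild-type libraries for 3 of the 76 and below for 2, beside 2.99% and 1.60% of all genes. By limma 3 of the 76 had an unadjusted p under 0.05, beside 5.13% of all genes, and by limma-voom 5, beside 682 of 13621. In heterozygous against wild type the median was 0.03, 0 were called, and 1 had an unadjusted p under 0.05 by each tool, beside 2.75% of all genes by limma and 220 of 13621 by limma-voom. Of 11 measured genes of glycerolipid synthesis, a list that also holds the cholesterol acyltransferase Soat2, 3 were positive and 8 negative in the knockout (median -0.01), beside 57.2% positive and a median of 0.03 over all genes. The phosphatidate phosphatase Lpin2, which makes the diacylglycerol that Dgat1 uses, averaged 58.7 ± 1.77 RPKM (SD, n = 4) in wild-type and 57.1 ± 3.05 (SD, n = 3) in knockout libraries. Agpat1 and Agpat3, acyltransferases acting earlier, were at log2 -0.01 and -0.08.

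Other coat and assembly genes had a median of 0.00 over 6 measured members in the knockout. Seipin (Bscl2), which shapes new droplets, was at log2 0.14 and Rab18, a droplet-associated GTPase, at -0.24. The median of 9 other lipase genes was 0.03. Abhd12, a lysophosphatidylserine lipase, was the most abundant of them at 254 ± 27.8 RPKM in wild type (SD, n = 4) and 243 ± 9.15 in knockout (SD, n = 3), and the lysosomal lipase Lipa followed at 76.6 ± 6.03 and 80.9 ± 9.44. Nceh1, a cholesteryl ester hydrolase, ran from 4.49 to 5.67 RPKM in wild-type and from 3.52 to 4.21 in knockout libraries, a log2 difference of -0.32 (SE 0.16; limma adjusted p = 0.977). Every knockout library was below every wild-type library for Nceh1, as for 1.60% of all genes.

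Of 15 measured genes of fatty acid oxidation 11 were positive and 4 negative in the knockout (median 0.01). Over all genes 57.2% were positive, with a median of 0.03. Every knockout library was below every wild-type library for 1 of the 15, Cpt1a (log2 -0.19), and above for 0. The shares of all genes were 1.60% below and 2.99% above. Slc25a20, the carnitine-acylcarnitine carrier of the inner mitochondrial membrane, had the smallest unadjusted p (0.00131) of the 76. It stood at 11.0, 5.72, 5.53 and 9.64 RPKM in wild-type, 9.13, 9.73 and 11.6 in heterozygous and 17.5, 9.66 and 9.99 in knockout libraries (log2 0.71, SE 0.17; limma adjusted p = 0.913). Of the knockouts, library 6 alone lay above the wild-type range, as heterozygous library 11 did by less, and the genotypes overlapped. Slc25a20 was also log2 0.60 higher in female libraries (SE 0.14; limma adjusted p = 0.919). Fatty acid synthesis and desaturation genes had a median of -0.03 in the knockout and 0.09 in heterozygous libraries. Fads2, the delta-6 desaturase, was at 3.15, 1.75, 2.66 and 2.41 RPKM in wild-type, 2.73, 5.11 and 4.39 in heterozygous and 1.61, 2.40 and 2.46 in knockout libraries. It was named for its heterozygous difference of log2 0.62 (SE 0.24, limma adjusted p = 1.00), which did not pass. Between knockout and heterozygous libraries Fads2 differed by log2 -0.81 (SE 0.27, limma adjusted p = 0.999). There every knockout library lay below every heterozygous library, as for 3.02% of all genes.

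Fatty acid activation and binding genes had a median of 0.05 in both comparisons, with Acsl5, another long-chain acyl-CoA synthetase, at log2 0.03 in the knockout. Fabp3 and Fabp5, fatty acid binding proteins, stood under 1 RPKM on average in wild type (0.531 and 0.325). Among 13 measured lipid-responsive regulators the median was -0.06 in the knockout and 0.11 in heterozygous libraries. Mlx, the partner of carbohydrate-responsive factors that bind E-box pairs, averaged 4.44 ± 0.443 RPKM (SD, n = 4) in wild-type against 5.69 ± 0.482 (SD, n = 3) in knockout libraries, a log2 difference of 0.33 (SE 0.14; limma adjusted p = 0.969). For Mlx every knockout library lay above every wild-type library, as for 2.99% of all genes. Mlxipl, that is ChREBP, was at 93.6 ± 6.28 and 91.8 ± 12.4 RPKM. Ppard, a nuclear receptor for fatty acids, averaged 23.0 ± 1.63 RPKM (SD, n = 4) with both copies and 19.4 ± 4.42 (SD, n = 3) with none, a log2 difference of -0.31 (SE 0.13; limma adjusted p = 0.969).

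**Figure D3:**
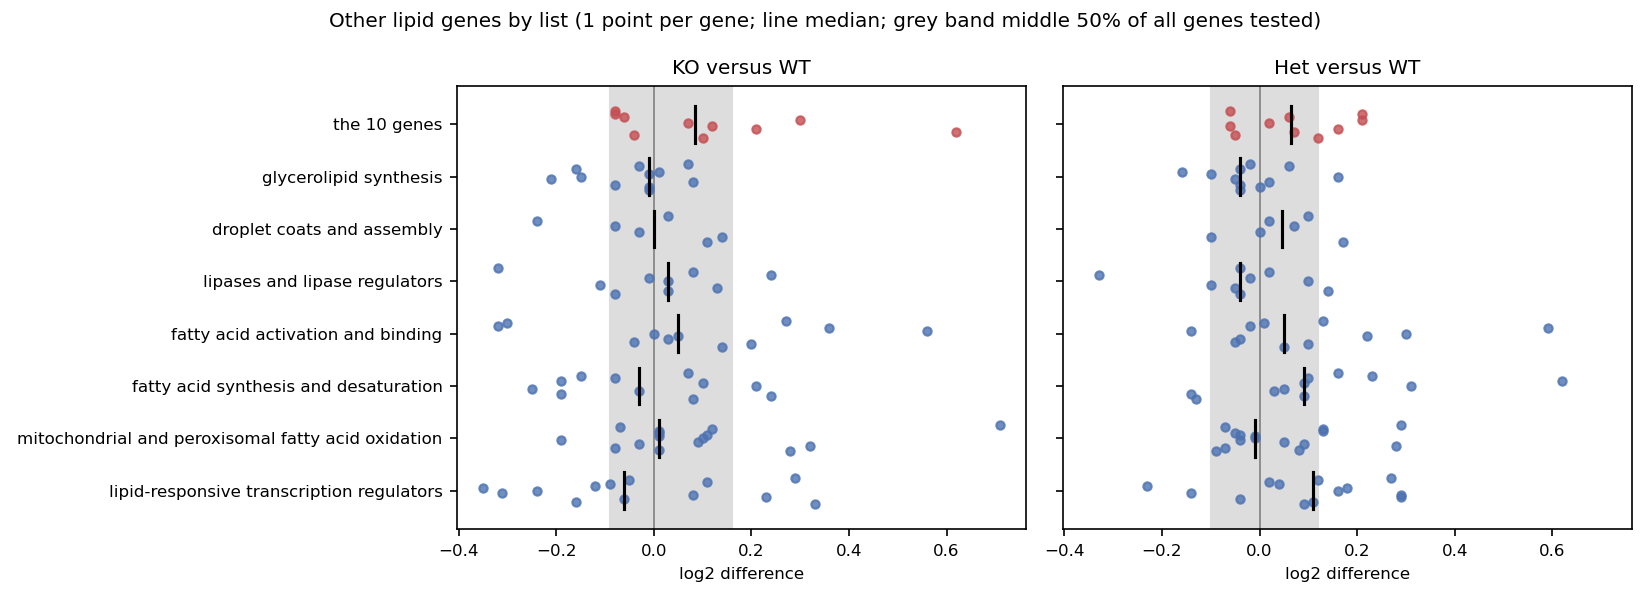
Log2 differences (x axis) of the 10 genes (red) and of 76 other lipid genes in 7 lists (blue), 1 point per gene, with the list median as a black line and the middle 50% of all 13621 genes as a grey band. Dgat1 (0.62) and Slc25a20 (0.71) are the points farthest to the right in the knockout panel, and list medians lie between -0.06 and 0.09 there.

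Genes were also compared with Dgat1 by their pattern over the 10 libraries. Among 10810 genes with a mean of at least 1 RPKM, the 5 with the highest Pearson correlation of log2 values were Polr2g (r = 0.94), a subunit of RNA polymerase II, Commd5 (0.93), Atpaf2 (0.92), an assembly factor of the mitochondrial ATP synthase, Dffa (0.92), the inhibitor of the caspase-activated DNase, and Pigg (0.91), an enzyme of GPI-anchor synthesis. The median over all genes compared was 0.09. The correlations are descriptions over 10 libraries that share genotype, sex and depth, chosen as extremes. Spearman coefficients were 0.89 to 0.95 for these 5. Without knockout library 6 and wild-type library 7, the libraries farthest from the median of Dgat1, r was 0.86 to 0.99. Over the 7 libraries with an intact Trem2 copy it was 0.70 to 0.94, which follows in part from the choice of these genes over all 10. Commd5 lies on chromosome 15 like Dgat1, at 76899910 to 76901305, and the other 4 lie elsewhere.

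All 5 of these genes had every knockout library above every wild-type library, as follows from their likeness to Dgat1. Commd5 stood at 0.597 to 1.60 RPKM in wild type and 2.08 to 2.72 in knockout, and Polr2g at 14.0 to 17.8 and 18.2 to 21.5. In the opposite direction, Snx19 (r = -0.93), Psen2 (-0.92), a catalytic subunit of gamma-secretase, and Psma8 (-0.90) were the least like Dgat1. Psen2 stood at 3.09 to 4.75 RPKM in wild type, 2.52 to 3.43 in heterozygous and 2.01 to 2.36 in knockout libraries. Among the other 9 lipid droplet genes the closest to Dgat1 were Dgat2 (r = 0.54) and Acsl1 (0.51), and the farthest was Soat1 (-0.47). This order did not hold without knockout library 6 and wild-type library 7. There Lipe (0.74), Mgll (0.66) and Plin2 (0.64) exceeded Dgat2 (0.53) and Acsl1 (0.33), and Acsl4 (-0.76) was farther than Soat1 (-0.68). Over the 7 libraries with an intact Trem2 copy it did hold. Dgat2 (0.83) and Acsl1 (0.76) were the closest there, followed by Pnpla2 (0.70), and Soat1 (-0.86) was the farthest.

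**Figure D4:**
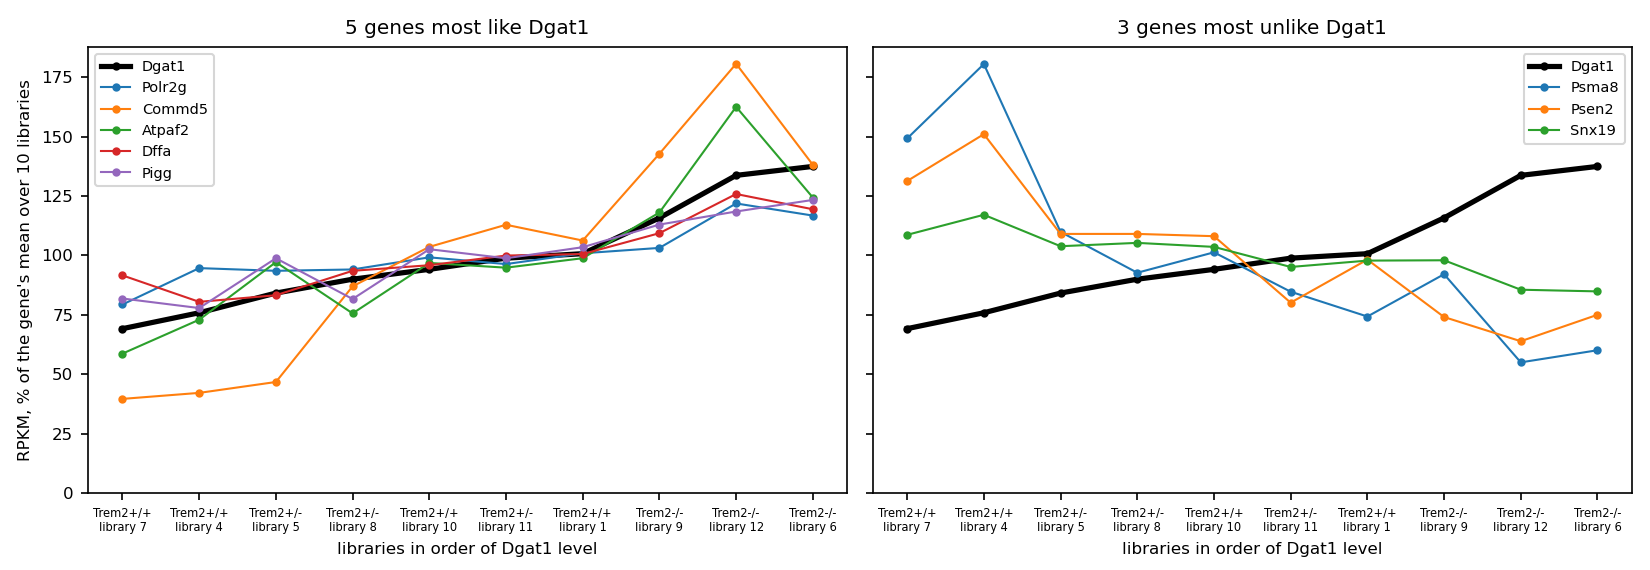
RPKM as a percentage of each gene's mean over 10 libraries (y axis), with libraries ordered from the lowest to the highest Dgat1 level (x axis). Lines follow Dgat1 (black) with the 5 most similar genes (left, r from 0.91 to 0.94) and the 3 least similar (right, r from -0.93 to -0.90), and the 3 knockout libraries are the 3 at the right end of each panel.

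**Figure D5:**
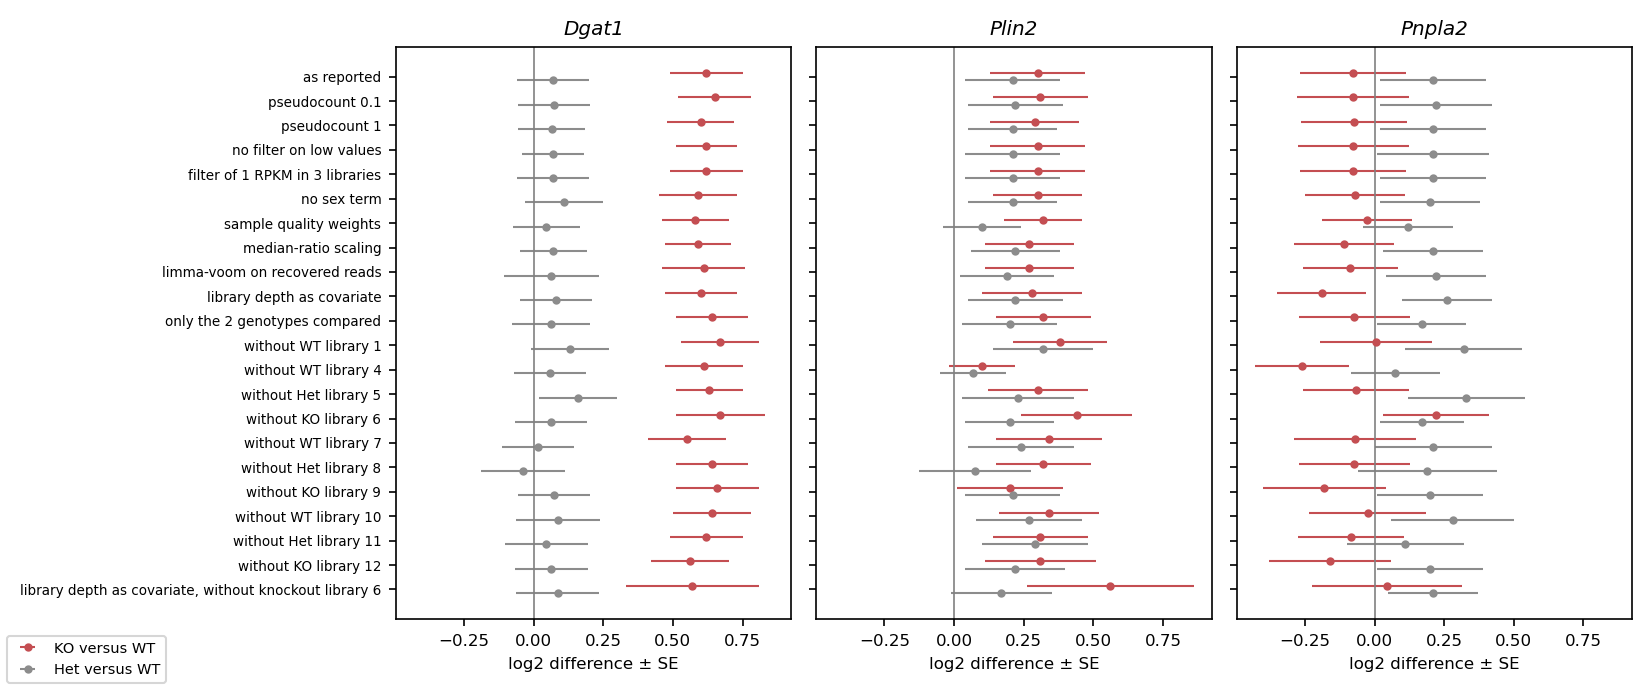
Log2 difference ± SE (x axis) of Dgat1, Plin2 and Pnpla2 in knockout (red) and heterozygous (grey) against wild type as reported and under 21 other settings (y axis). In the knockout, Dgat1 ranges from 0.55 to 0.67, Plin2 from 0.10 to 0.56 and Pnpla2 from -0.26 to 0.22. Dgat1 was chosen by this comparison.

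Across the 21 other settings, the knockout difference of Dgat1 kept its sign and ranged from 0.55 to 0.67. Its limma adjusted p-values ran from 0.395 to 1.00, so it was never called. The settings reuse the libraries that chose the gene, so this range supports nothing. The knockout differences of Pnpla2, Plin3, Mgll, Lipe and Acsl4 took either sign, depending on the library left out or the setting.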

How the data were processed

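RNA-seq libraries were made from 10 samples with the Ovation RNA-seq system v2 kit and sequenced on an Illumina HiSeq4000, per the labels' protocols. The authors deposited RPKM, 1 value per gene and library. The submitters' processing notes name STAR, HTSeq, edgeR, limma and mm10. Versions, order, annotation and strand setting are not given in the material used here. For each gene with a value above 0, the shortest gene length that turned its values into whole reads was sought. Such a length was found for all 20008 (within 0.002 reads or a relative 3e-07), which gave the reads per library (17.31 to 44.29 M). For genes seen in few libraries many lengths can fit by coincidence, so a fit was no check there and reads may be understated. The 27 gene names turned into dates were left out.

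The 13621 genes reaching 0.5 RPKM in 3 or more libraries were kept, and log2(RPKM + 0.5) was fitted with limma 3.58.1 in R 4.3.3 on genotype and sex, over all 10 libraries, with a mean-variance trend. Tests were two-sided, with Benjamini-Hochberg adjustment over the 13621 genes and calls at an adjusted p under 0.05. Fold changes on this scale understate the change of low genes.

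The 10 genes and the lists were chosen with earlier results of these data known. The rule for named genes took all 10, up to 3 genes per list with the highest mean, up to 2 others with the largest knockout difference, and the 5 most and 3 least like Dgat1, and not all of these are printed. Fads2 and Cpt1a, outside the rule, were added after their values were seen. Coordinates are from GENCODE M21 (GRCm38) and promoters from RefSeq (GRCm38.p6). Counting errors cover the sampling of reads only. Alternatives were other pseudocounts, filters, scalings, covariates and weights, limma-voom on recovered reads, and leaving out each library.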

Additional observations from a re-analysis of the deposited data

How the results depend on the processing

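None of the 10 genes was called in any of 21 alternatives, 20 of them planned. In knockout against wild type, 1 gene of all tested was called as reported, and 2 with sample quality weights, with limma-voom on recovered reads, with library depth as a covariate, and with that covariate but without knockout library 6. The last setting was chosen after seeing the data. Leaving out each library gave 1 to 3, with 3 genes without knockout library 6. In knockout against heterozygous, 1 gene was called and 2 with depth as a covariate. In heterozygous against wild type 0 were called throughout, and by sex 6, with a range of 5 to 7. Outside knockout against wild type (sign changes named with the Dgat1 range above), 58 values of the 10 genes took the opposite sign under an alternative (14 in heterozygous against wild type, 26 in knockout against heterozygous, 18 by sex), and the cause was not tested. With all libraries or the added setting, those in heterozygous against wild type were Mgll at -0.027 with weights and Plin3 at -0.0053 with depth as a covariate and without knockout library 6. In knockout against heterozygous, Acsl4 was at -0.023 without the sex term and -0.021 with median-ratio scaling and with limma-voom, and Mgll at -0.03 with weights. With depth as a covariate Dgat2 was at -0.078, Soat1 at 0.034 and Mgll at -0.016. With only the 2 genotypes compared Dgat2 was at -0.12, Soat1 at 0.031 and Plin2 at -0.0021. With the depth covariate and without knockout library 6, Dgat2 was at -0.013, Plin3 at 0.23 and Mgll at -0.14, and in females against males Plin2 at 0.16, Pnpla2 at 0.064, Mgll at -0.048 and Lipe at 0.2. Leaving out each library, the log2 difference in heterozygous against wild type ranged as follows for the genes whose sign changed: Lipe (-0.23 to 0.12), Mgll (-0.053 to 0.12), Acsl4 (-0.11 to 0.019), Plin3 (-0.035 to 0.14), Dgat1 (-0.039 to 0.16), Dgat2 (-0.18 to 0.32) and Acsl1 (-0.069 to 0.2). Leaving out each library, the log2 difference in knockout against heterozygous ranged as follows for the genes whose sign changed: Dgat2 (-0.1 to 0.42), Mgll (-0.037 to 0.12), Pnpla2 (-0.4 to 0.04), Acsl4 (-0.074 to 0.11), Acsl1 (-0.089 to 0.19), Soat1 (-0.16 to 0.023) and Plin2 (-0.0073 to 0.24). Leaving out each library, the log2 difference in females against males ranged as follows for the genes whose sign changed: Soat1 (-0.12 to 0.032), Mgll (-0.029 to 0.1), Pnpla2 (-0.18 to 0.18), Plin2 (-0.17 to 0.083) and Lipe (-0.22 to 0.071). Dgat2 (38 to 202 reads) and Plin3 (68 to 186 reads) had the fewest reads of the 10 genes. Their counting errors reached 16.2% and 12.1%, and the part of depth in their spread was not tested. No paired analysis was run, because the library numbers are not shared between genotypes.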
